A study of Bos taurus with 11 samples.

Results

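De novo lipogenesis, the building of fatty acids from small carbon units, was followed through 10 genes in mammary parenchyma of Holstein heifer calves: SCD, FASN, ACACA, ACLY, ELOVL6, THRSP, SREBF1, ME1, ACSS2 and MLXIPL. The genes were named from the pathway, and each was read from probe sets annotated to its symbol alone. They had 11 probe sets among 26773 on the array, and were 10 of the 18444 genes measured by a probe set with exactly 1 symbol. SCD had 2 probe sets, and both are given. All 10 genes were measured, and no filter on dim signals was applied.

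The 6 elevated calves drank on average 8.4 L of milk replacer daily in 3 meals, which gave them 5.9 ± 0.2 Mcal (SE) of metabolisable energy. The 5 restricted calves drank 4 L daily in 2 meals, for 2.8 ± 0.2 Mcal (SE), so the amount fed and the number of meals cannot be told apart. All were female, received milk replacer with 28% protein and 15% fat, had starter grain on offer from day 18, and were killed on day 54 (± 2). The labels say that 6 restricted calves were allotted and that 1 had parenchyma too small to separate from its fat pad, so the restricted arrays lack that poorly developed gland. Each array holds RNA of a different calf, and calves are named here by diet and by the replicate number of their labels.

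In this pathway acetyl-CoA is carboxylated to malonyl-CoA, joined into palmitate by fatty acid synthase, then elongated and desaturated, with NADPH as the reductant. Ruminants draw most of the carbon from acetate made by rumen microbes rather than from glucose, although a calf before weaning is only beginning to ferment feed. Adipocytes and, in lactation, milk-secreting epithelium are the mammary cells best known for running the pathway, and insulin raises it through the transcription factor SREBP-1c. Mammary parenchyma before puberty consists of epithelial ducts, stroma and neighbouring fat, and an array of the whole tissue sums over them. In such bulk samples, fewer cells of a type and less RNA per cell cannot be told apart.

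Values are RMA signals on a log2 scale, on which a gap of 1 is a 2-fold difference. Differences are elevated minus restricted, so a negative value means a lower mean in elevated calves. Array medians lay between 6.37 and 6.45, and pairs of arrays correlated at 0.964 to 0.990. As a check of the tissue label, the epithelial adhesion gene EPCAM read 8.85 to 9.83 in elevated calves, above the array medians. In restricted 1 to 5 it read 9.47, 5.98, 8.92, 8.14 and 9.29. Restricted 2 was below the array medians at this gene, and restricted 2 and restricted 4 stood apart from the rest. The luminal keratin gene KRT18 read 7.81 to 8.85 in elevated calves and 5.86 to 8.08 in restricted calves. KRT8 was dimmer, at 5.58 to 7.29 in elevated calves and 4.44 to 6.55 in restricted calves, on both sides of the array medians. The mean over 19 adipocyte markers was 6.83 to 8.40 in elevated calves, against 10.12 in restricted 2, 9.49 in restricted 4 and 7.99, 8.16 and 7.74 in restricted 1, 3 and 5. The mean over 20 luminal epithelial markers was 8.64 to 9.42 in elevated calves, against 6.83 in restricted 2, 8.22 in restricted 4 and 9.12, 8.94 and 9.06 in restricted 1, 3 and 5. The lipogenesis genes, and the lists and genes set beside them, are therefore also given without these 2 calves.

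Lipogenic transcripts had lower means in elevated calves for all 10 genes, with differences between -1.99 for THRSP and -0.02 for SREBF1 and a median of -0.68. None of the 10 passed limma's test at an adjusted p under 0.05. Over the whole array 2 probe sets passed, or 0.00747%, while 49.2% of all probe sets had a lower mean in elevated calves and their median difference was 0.0031. At an unadjusted p under 0.05, 7 of the 10 genes were lower and 0 were higher, where 5.33% of all probe sets were lower by that rule. The 7 were SCD, FASN, ACACA, ACLY, THRSP, ME1 and ACSS2. Most members moved together across calves, so these counts are not 10 independent observations. The median Pearson r of a member with the other 9 was 0.42 for SREBF1 and 0.72 to 0.95 otherwise. With restricted 2 and restricted 4 left out, it was -0.51 for SREBF1, 0.24 for ME1, 0.37 for ELOVL6 and 0.59 to 0.84 otherwise. Without restricted 2 and restricted 4, 9 of 10 had lower means in elevated calves (48.7% of all probe sets did), the median difference was -0.25, and SCD and THRSP were the 2 at an unadjusted p under 0.05 (4.76% of all probe sets were lower by that rule).

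**Figure D1:**
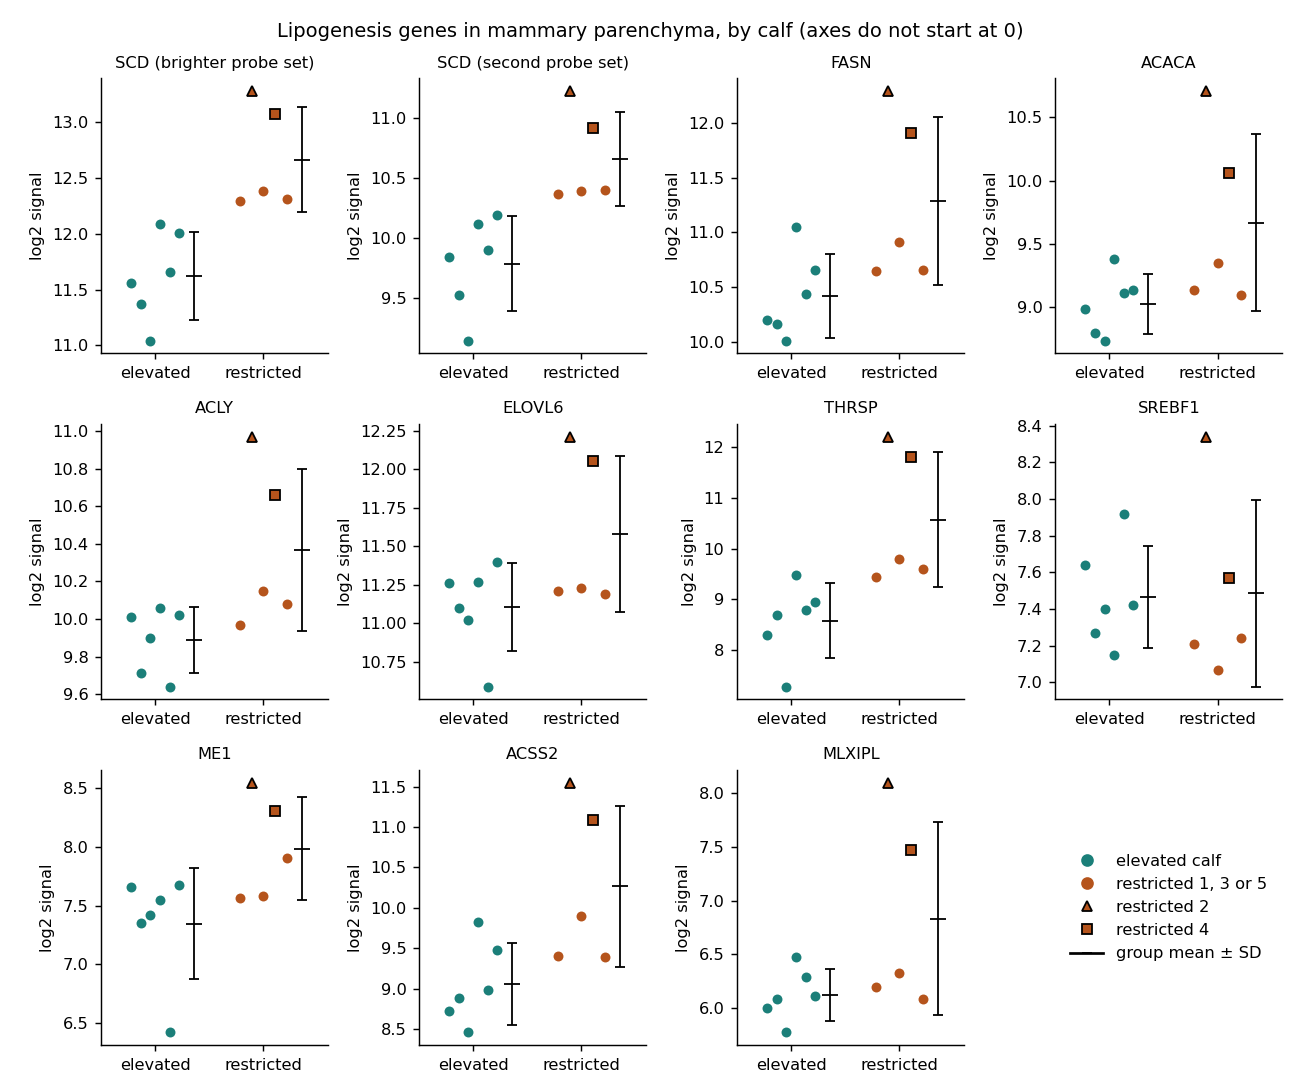
Each panel plots the log2 signal of 1 probe set in every calf, elevated on the left and restricted on the right, with group mean ± SD beside the points; vertical axes do not start at 0. Restricted 2 (triangle) is the highest calf in all panels and restricted 4 (square) the second highest in all but SREBF1, and the groups do not overlap at either SCD probe set.

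SCD encodes stearoyl-CoA desaturase, which turns stearate into the monounsaturated oleate. Its brighter probe set read from 11.04 to 12.09 in elevated calves, with a median of 11.61. The restricted calves, 1 to 5 in order, read 12.29, 13.28, 12.38, 13.07 and 12.31. The 6 elevated calves were all lower than the lowest restricted calf, and the groups were parted by 0.20. The groups failed to overlap in that direction at 0.751% of all probe sets.

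Elevated calves averaged 11.62 ± 0.40 (SD, n = 6), against 12.66 ± 0.47 (SD, n = 5) for restricted calves. The difference was -1.04 ± 0.24 (SE; 95% interval -1.56 to -0.52), a mean signal 2.06-fold lower in elevated calves. The exact two-sided permutation p was 0.00216, the smallest that 462 splits of the calves allow, while the limma adjusted p was 0.236. SCD ranked 109 of 26773 probe sets by p. The difference was -0.71 ± 0.21 (SE; limma adjusted p = 0.404) without restricted 2 and restricted 4.

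The second SCD probe set carries the symbol but no gene number in the platform annotation. It read from 9.14 to 10.19 in elevated calves (median 9.87). Restricted 1 to 5 gave 10.37, 11.23, 10.39, 10.92 and 10.40. These groups did not overlap either, and restricted 1, 3 and 5 were nearly level. The difference was -0.88 ± 0.22 (SE; limma adjusted p = 0.267; exact permutation p = 0.00433), and -0.60 ± 0.21 (SE) without restricted 2 and restricted 4. The probe sets kept a gap of 1.71 to 2.15 in every calf, and so ordered the calves much alike.

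FASN, the multifunctional synthase that assembles palmitate, read from 10.01 to 11.05 in elevated calves, with a median of 10.32. Signals of restricted 1 to 5 were 10.65, 12.29, 10.91, 11.91 and 10.66. Elevated 4, at 11.05, lay above restricted 1, 3 and 5, so the groups overlapped, and restricted 2 and restricted 4 alone stood above all elevated calves. The difference was -0.86 ± 0.32 (SE; limma adjusted p = 0.401; exact permutation p = 0.0325), and it was -0.32 ± 0.21 (SE) without those 2 calves.

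ACACA encodes acetyl-CoA carboxylase alpha, which commits carbon to fatty acids by making malonyl-CoA. Elevated calves read 8.73 to 9.38 (median 9.05). Restricted 1 to 5 read 9.13, 10.71, 9.35, 10.06 and 9.09. Again restricted 2 and restricted 4 alone lay above all elevated calves. The difference was -0.65 ± 0.27 (SE; limma adjusted p = 0.454; exact permutation p = 0.0476), and -0.17 ± 0.15 (SE) without both.

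The enzymes that supply acetyl-CoA were ACSS2 and ACLY. ACSS2, the cytosolic synthetase that activates acetate, read from 8.46 to 9.83 in elevated calves with a median of 8.93. It stood in restricted 1 to 5 at 9.40, 11.55, 9.90, 11.09 and 9.39. Restricted 3 joined restricted 2 and restricted 4 above all elevated calves, and 4 elevated calves lay below all restricted calves. The difference was -1.21 ± 0.41 (SE; limma adjusted p = 0.374; exact permutation p = 0.0238), the second largest of the 10 genes. It was -0.50 ± 0.28 (SE) without restricted 2 and restricted 4.

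ACLY, the citrate lyase that draws acetyl-CoA from mitochondrial citrate, moved over a narrower span. Elevated calves read 9.64 to 10.06 (median 9.96). Restricted 1 to 5 read 9.97, 10.97, 10.15, 10.66 and 10.08. All restricted calves but restricted 1 lay above all elevated calves. The difference was -0.48 ± 0.18 (SE; limma adjusted p = 0.407; exact permutation p = 0.0130), and -0.18 ± 0.11 (SE) without both calves.

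ME1, the cytosolic malic enzyme that yields NADPH, read from 6.42 to 7.68 in elevated calves, with a median of 7.49. Restricted 1 to 5 had signals of 7.57, 8.55, 7.58, 8.31 and 7.91. Elevated 5 was far below its group, and 3 restricted calves lay above all elevated calves. The difference was -0.64 ± 0.25 (SE; limma adjusted p = 0.428; exact permutation p = 0.0368). It was -0.34 ± 0.26 (SE) without restricted 2 and restricted 4, and -0.45 without elevated 5.

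ELOVL6, the elongase that lengthens palmitate to stearate, the substrate of SCD, showed less separation. Elevated calves read 10.59 to 11.40 (median 11.18), and restricted 1 to 5 read 11.21, 12.21, 11.23, 12.05 and 11.19. Restricted 1, 3 and 5 sat inside the elevated range. The difference was -0.47 ± 0.22 (SE; limma adjusted p = 0.497; exact permutation p = 0.0974), and -0.11 ± 0.16 (SE) without both calves.

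THRSP encodes Spot 14, a nuclear protein that thyroid hormone induces and that promotes lipogenesis in liver, fat and mammary gland. It had the widest span of the 10 genes. Elevated calves read from 7.27 to 9.47, with a median of 8.74. In restricted 1 to 5 it read 9.43, 12.21, 9.80, 11.81 and 9.60. Elevated 4, at 9.47, lay just above restricted 1, and the other 5 elevated calves lay below all restricted calves.

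Elevated calves had a mean THRSP signal of 8.57 ± 0.74 (SD, n = 6), against 10.57 ± 1.33 (SD, n = 5) for restricted calves. The difference was -1.99 ± 0.56 (SE; 95% interval -3.23 to -0.76), a signal 3.99-fold lower in elevated calves (limma adjusted p = 0.309; exact permutation p = 0.00433). Without restricted 2 and restricted 4 it was -1.03 ± 0.39 (SE; limma adjusted p = 0.499).

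Of the transcription factor genes, SREBF1 encodes SREBP-1, which binds sterol regulatory elements of FASN, ACACA and SCD. It read from 7.15 to 7.92 in elevated calves, with a median of 7.41. The signals were, in restricted 1 to 5, 7.21, 8.34, 7.07, 7.57 and 7.24. Restricted 2 was the highest calf and restricted 3 the lowest, so the restricted range enclosed the elevated range.

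The SREBF1 difference was -0.02 ± 0.22 (SE; 95% interval -0.50 to 0.46; limma adjusted p = 0.983). The interval does not exclude changes of either sign up to about that size. Without restricted 2 and restricted 4 the difference was 0.29 ± 0.16 (SE; 95% interval -0.07 to 0.65), with the opposite sign. Which SREBF1 isoforms the probe set reads was not determined, and processing of the protein is not measured.

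MLXIPL encodes ChREBP, the glucose-responsive activator of lipogenic genes. Elevated calves read 5.77 to 6.47 (median 6.10), near or below the array medians, where RMA compresses differences. Restricted 1 to 5 read 6.19, 8.10, 6.32, 7.47 and 6.08. Restricted 1, 3 and 5 lay inside the elevated range, and restricted 2 and restricted 4 far above it. The difference was -0.71 ± 0.34 (SE; limma adjusted p = 0.511; exact permutation p = 0.0779), and -0.08 ± 0.14 (SE) without both calves.

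Across the 10 genes, elevated 3 was the lowest calf in 6 (SCD, FASN, ACACA, THRSP, ACSS2 and MLXIPL) and elevated 5 in 3 (ACLY, ELOVL6 and ME1). Elevated 4 was the highest elevated calf in 7. Restricted 2 was the highest of all calves in 10 and restricted 4 the second highest in 9, SREBF1 being the exception. Adipocyte markers had the same extremes: elevated 3 had the lowest mean of the 19 markers (6.83), elevated 4 the highest of its group (8.40), and restricted 2 the highest of all (10.12). The adipocyte list had lower means in elevated calves for 19 of 19 genes, with a median difference of -1.06 and 0 past the adjusted threshold. Without restricted 2 and restricted 4, 16 of 19 were lower and the median was -0.30 (-0.75 without restricted 2 alone). Of its defining markers, ADIPOQ and PLIN1 were above the array medians in every calf. LEP, the other, was below them in all calves but restricted 2 and restricted 4. ADIPOQ, the gene of adiponectin, read 8.94 to 10.77 in elevated calves and 9.90 to 11.94 in restricted calves, and PLIN1, of the lipid droplet coat, read 7.61 to 9.68 in elevated calves and 8.79 to 11.51 in restricted calves.

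**Figure D2:**
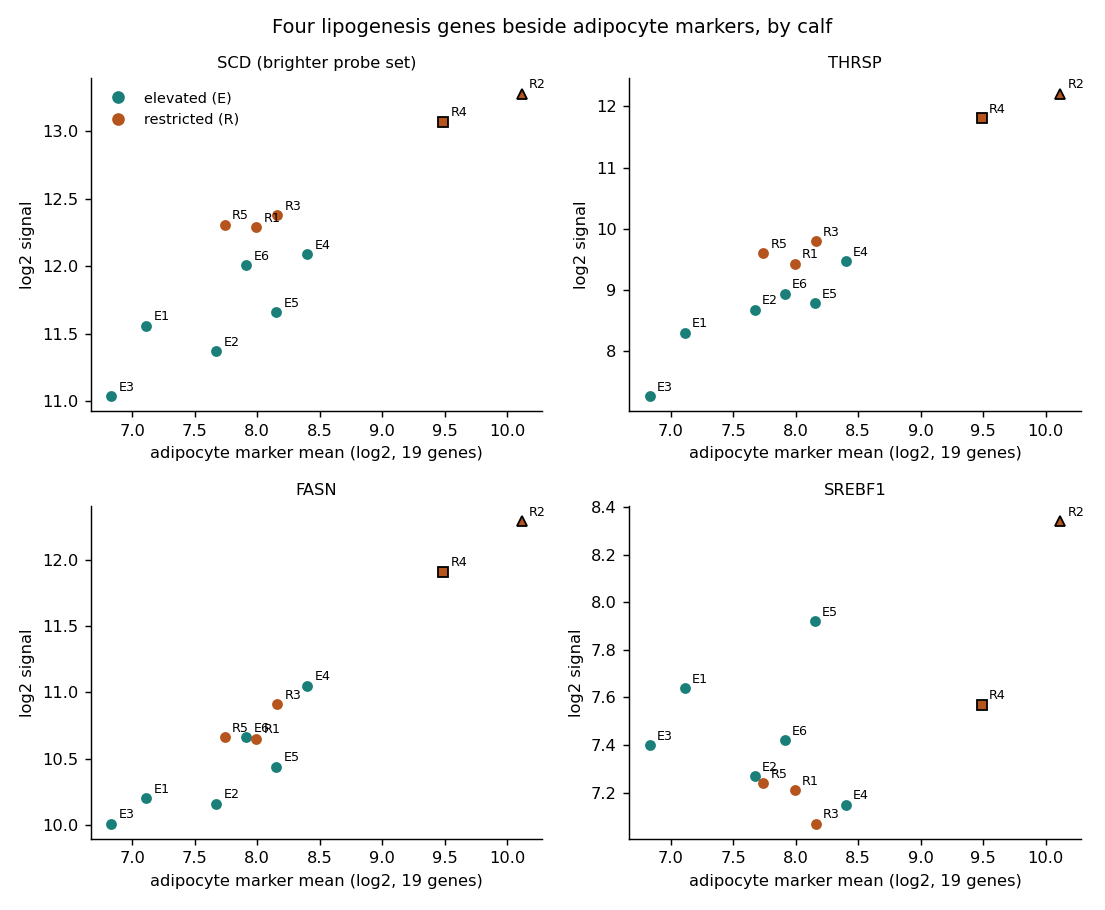
Each panel plots the log2 signal of a lipogenesis gene (vertical axis) against the mean log2 signal of 19 adipocyte markers (horizontal axis), with 1 point for each of the 11 calves. Elevated 4, 5 and 6 (E4 to E6, adipocyte means 8.40, 8.15 and 7.91) lie in or above the span of restricted 1, 3 and 5 (R1, R3 and R5, 7.74 to 8.16) on the horizontal axis, and restricted 2 and restricted 4 lie apart at 10.12 and 9.49.

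In a fit over all probe sets that took the adipocyte mean of each calf as a covariate, the SCD difference was -0.56 ± 0.14 (SE; limma adjusted p = 0.337) at the brighter and -0.46 ± 0.15 (SE) at the second probe set. THRSP differed by -0.75 ± 0.19 (SE; limma adjusted p = 0.337). ME1 differed by -0.44 ± 0.30 (SE), ACSS2 by -0.31 ± 0.17 (SE), ACLY by -0.20 ± 0.16 (SE) and FASN by -0.18 ± 0.13 (SE). ELOVL6 and ACACA differed by -0.14 and -0.07, MLXIPL by 0.02 and SREBF1 by 0.29. Of the 10 genes 8 kept a negative sign in that fit (48% of all probe sets had one), and SCD and THRSP were the 2 at an unadjusted p under 0.05, where 4.59% of all probe sets were lower by that rule. Whether SCD or THRSP differed from FASN in this respect was not tested, nor was the part of adipose tissue in the differences of single genes.

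**Figure D3:**
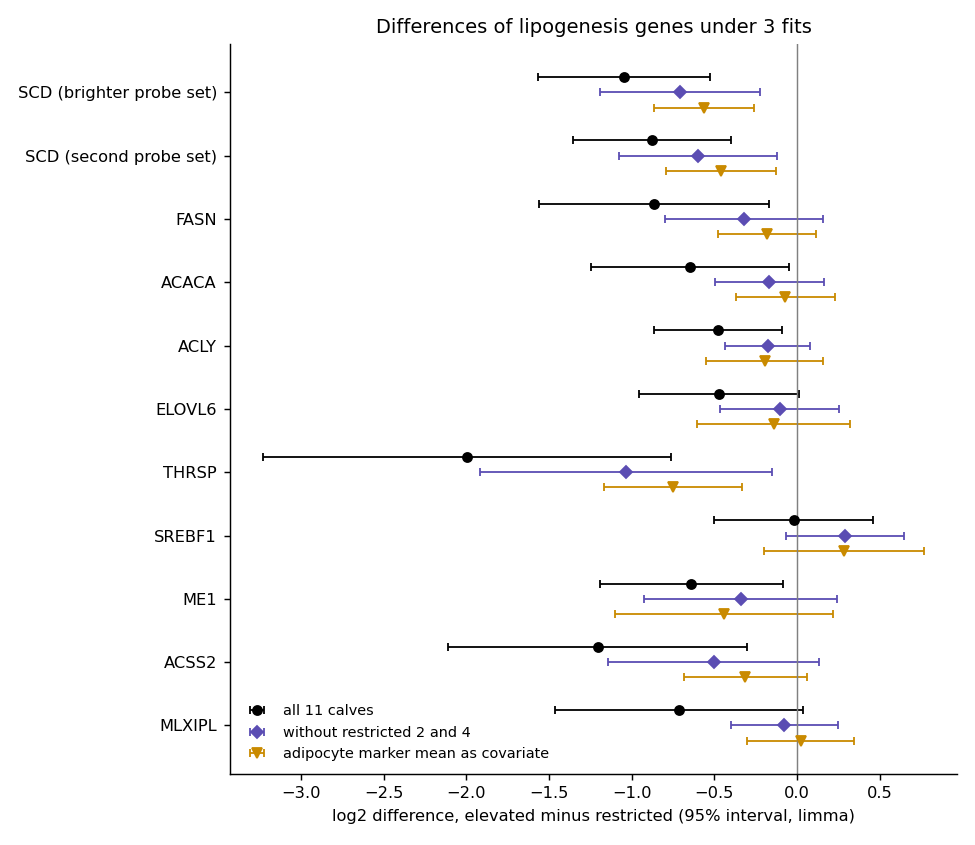
Log2 differences (elevated minus restricted, horizontal axis) with 95% intervals from limma are plotted for each probe set in 3 fits: all 11 calves, without restricted 2 and 4, and with the adipocyte marker mean as a covariate. SCD and THRSP keep intervals below 0 in all 3 fits (SCD -1.04, -0.71 and -0.56; THRSP -1.99, -1.03 and -0.75), whereas the other genes do not.

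Lists of genes that feed or surround the pathway had smaller median differences. Of 14 measured genes for carbon, NADPH and acyl-CoA supply, 0 passed the adjusted threshold, 10 had lower and 4 higher means in elevated calves, and the median difference was -0.19. That median was -0.065 without restricted 2 and 0.010 without restricted 2 and restricted 4, when 7 of 14 were lower. IDH1, cytosolic isocitrate dehydrogenase, a main source of NADPH for lipogenesis in ruminants, read 9.68 to 10.30 in elevated calves and 10.17 to 11.06 in restricted calves (difference -0.63 ± 0.18 SE; limma adjusted p = 0.307; -0.35 without restricted 2 and restricted 4). PGD, of the oxidative pentose phosphate pathway, differed by -0.38, and by -0.21 without restricted 2 and restricted 4. Its groups met without overlap (10.28 to 10.96 in elevated calves, 10.96 to 11.59 in restricted calves). In that direction 0.751% of all probe sets had no overlap. SLC25A1, the mitochondrial citrate carrier, differed by -0.62, and by -0.16 without both calves. MCAT, of mitochondrial fatty acid synthesis, differed by 0.17, and by 0.26 without both. ACACB, the carboxylase isoform that restrains fatty acid oxidation, differed by 0.26 (0.11 without both), at signals of 4.08 to 5.40 over all calves, below the array medians.

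Of the 14 other elongation and desaturation genes, 0 passed, 11 were lower and 3 higher, with a median of -0.25. The median was -0.082 without restricted 2 and -0.044 without restricted 2 and restricted 4, when 9 were lower. SCD5, the other stearoyl-CoA desaturase gene, read 8.00 to 8.44 in elevated calves. The restricted calves, 1 to 5 in order, read 8.77, 8.33, 8.54, 8.73 and 8.35, so restricted 2 was the lowest restricted calf here. Its difference was -0.36 ± 0.12 (SE; limma adjusted p = 0.359), and -0.37 without restricted 2 and restricted 4. ELOVL4, which makes very long chains, differed by -0.36, ELOVL7 by 0.35 and the delta-6 desaturase gene FADS2 by -0.56. Without those 2 calves they differed by -0.51, 0.21 and -0.28.

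Of 24 measured regulators of lipogenic transcription, 0 passed, 14 were lower and 10 higher, with a median of -0.05 (0.04 without restricted 2 and restricted 4, when 11 were lower). SREBF2, the paralogue of SREBF1 that mainly drives cholesterol genes, read 8.79 to 9.21 in elevated calves. Restricted 1 to 5 gave 8.71, 8.47, 8.55, 8.44 and 8.67. Here the lowest elevated calf exceeded the highest restricted calf, the reverse of SCD. The groups failed to overlap in that direction at 142 of 26773 probe sets. The SREBF2 difference was 0.45 ± 0.09 (SE, limma adjusted p = 0.189), and 0.37 without restricted 2 and restricted 4.

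Among the other regulators, SP1, a general activator that works beside SREBPs, differed by 0.27, without overlap in the same direction as SREBF2 (142 of 26773 probe sets). PRKAA2, a catalytic subunit of the energy sensor AMPK, differed by 0.45 and the insulin signalling kinase gene AKT2 by -0.38. The values were 0.22 for SP1, 0.22 for PRKAA2 and -0.09 for AKT2 without restricted 2 and restricted 4 (-0.22 without restricted 2 alone). MID1IP1, the paralogue of THRSP whose product helps acetyl-CoA carboxylase polymerise, read 8.31 to 8.87 in elevated calves. Signals of restricted 1 to 5 were 8.35, 10.87, 9.08, 10.25 and 8.56, a difference of -0.76 that was -0.01 without restricted 2 and restricted 4. INSIG1, an SREBP target that retains SREBPs in the endoplasmic reticulum, differed by -0.53, and by -0.05 without both calves.

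**Figure D4:**
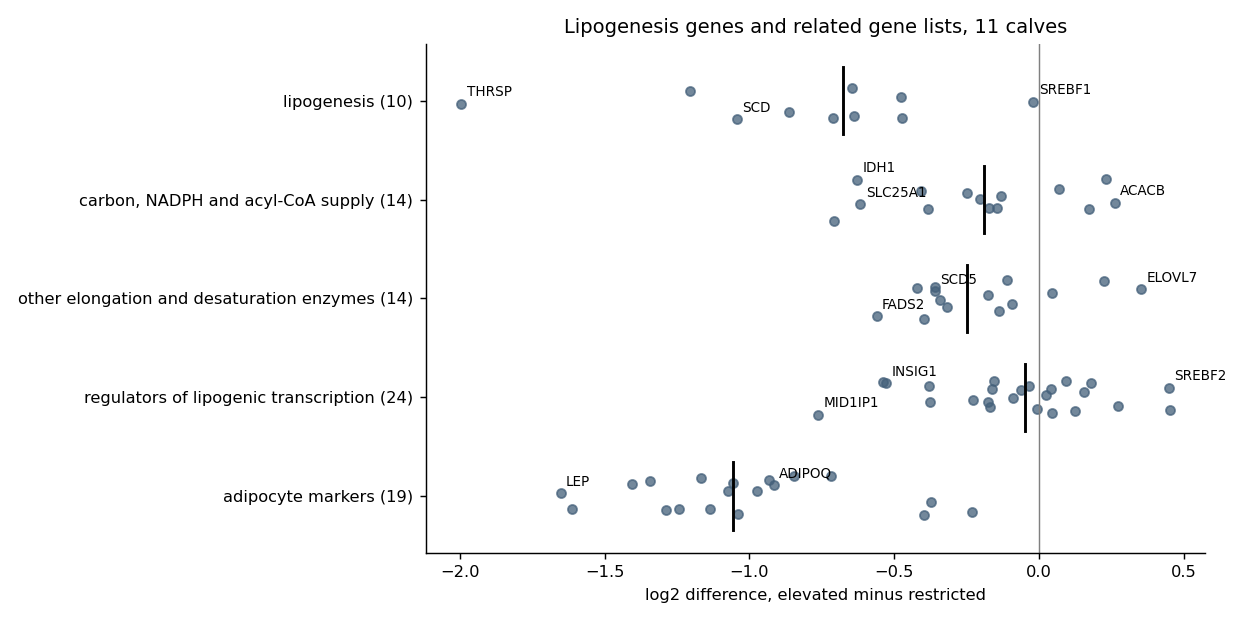
Points are genes, placed by their log2 difference (elevated minus restricted, horizontal axis) in rows for the lipogenesis genes, 3 related lists and adipocyte markers, and vertical bars are medians; point heights within a row are arbitrary. The lipogenesis row is centred at -0.68, the related lists at -0.19, -0.25 and -0.05, and the adipocyte row at -1.06.

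The genes most like SCD, FASN and THRSP were sought by Pearson's r over the 11 calves among 17470 other named genes, as a description only. All points share their arrays with the gene they are set against, and restricted 2 and restricted 4 weigh heavily, so r over the other 9 calves stands after each r over 11. Nearest to SCD were SGK2, a kinase related to SGK1 (r = 0.97, and 0.94 over 9 calves), the tetraspanin gene TSPAN15 (0.97 and 0.91), IDH1 (0.96 and 0.89), DGAT2, which completes triglycerides (0.95 and 0.87), and GPAM, the acyltransferase gene at the start of glycerolipid synthesis (0.95 and 0.86). Spearman's rho over the 11 calves was 0.91 to 0.96 for these 5. Nearest to FASN were ECHS1, an enoyl-CoA hydratase of beta oxidation (0.99 and 0.96), the RNA-binding protein gene MBNL3 (0.99 and 0.93), the adenosine receptor gene ADORA1 (0.98 and 0.92), SGK2 (0.98 and 0.96) and TRARG1 (0.98 and 0.90), with rho from 0.89 to 0.99. TRARG1, which acts in trafficking of the insulin-responsive glucose transporter, is itself on the adipocyte list.

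Nearest to THRSP were MBNL3 (0.98 and 0.94), BSG, the gene of basigin (0.97 and 0.92), DGAT2 (0.97 and 0.94), GPAM (0.97 and 0.91) and UQCRH, a subunit of respiratory complex III (0.97 and 0.91), with rho from 0.85 to 0.95. All of these genes had lower means in elevated calves, a direction made likely by choosing them for their likeness to SCD, FASN and THRSP over the same calves. SGK2 and DGAT2 differed by -1.62 and -1.63 and GPAM by -1.23, with limma adjusted p of 0.317, 0.372 and 0.334. They differed by -0.91, -0.85 and -0.67 without restricted 2 and restricted 4.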

How the data were processed

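Total RNA of mammary parenchyma from 11 calves was labelled with biotin and read on 1-colour arrays, per the labels' protocols, with 100 ng per sample at an integrity number above 7.0. The deposited log2 values were made with RMA, per the submitters' processing notes. The sources used here give neither its version and settings nor the array's genome build, so no coordinates are printed. The log2 scale was read from the values (1.08 to 14.20). The number of arrays limits the precision.

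Symbols came from the platform annotation (18790 of 26773 probe sets had exactly 1, 385 several, 7598 none), and a gene's probe set with the highest mean over all arrays represents it. All 10 member gene numbers kept their symbol in the RefSeq table of ARS-UCD2.0. INSIG2, ACTA2 and MRC1 were not analysed here. TUSC5 on the adipocyte list is an earlier symbol of TRARG1, which was analysed under that name.

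The test was limma 3.58.1 (lmFit, eBayes; R 4.3.3) on the values as deposited, without covariate or filter, and p-values were adjusted by Benjamini-Hochberg across the full array of 26773 probe sets, with a threshold of 0.05. Exact two-sided permutation tests used all 462 splits into 6 and 5 calves. The members, the pathway and marker lists and the left-out calves were chosen with earlier results of these data known, and no p is adjusted over a list. All 10 members were named, with the 4 genes of smallest p in each pathway list, 7 genes of set interest, and the 5 genes most like SCD, FASN and THRSP.

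In a simulation (26773 probe sets, 200 changed), each probe set had its spread pooled over the diets and noise independent of other probe sets. There limma found 55.2% of the 67 with a 1.5-fold change and 83.6% of the 67 with a 2-fold change. It found 92.4% of the 66 with a 4-fold change, and 12 of its 166 calls were false. In the data, most members moved together, and the restricted SD was up to 3.76 times the elevated SD (MLXIPL). These rates therefore do not give the chance of calling a member gene. The main test was unpaired because the labels do not say that replicate numbers pair calves. Same-numbered calves' deviations correlated at 0.21, 0.05, 0.10, 0.08 and -0.15, which cannot settle whether they are paired. Alternatives were other normalisations, filters and variance models, the replicate block, the adipocyte covariate and left-out calves. Figures were drawn with matplotlib 3.10.9.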

Additional observations from a re-analysis of the deposited data

Results flagged for a closer look

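In the 22 groups of values examined (11 probe sets in each diet), 1 held a calf far from the others by Dixon's test, which chance gives in about 1 of 20 groups. ME1 read 6.42 in elevated 5, where the nearest elevated calf had 7.35, a gap of 0.737 of the group's range. This calf also had the lowest ACLY and ELOVL6 signals and the highest skeletal muscle marker mean (7.66, against 5.68 to 6.99 in the other 10 calves). The part of this calf's tissue make-up in its ME1 signal was not tested.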

How the results depend on the processing

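The count of lipogenesis genes past the adjusted threshold was 0 of 10 under every alternative run, at thresholds of 0.05 and 0.1, and so was the count of called genes in the 3 pathway lists under those alternatives run for them (left-out calves and the adipocyte covariate). The smallest adjusted p of a lipogenesis gene ranged from 0.119 (SCD without elevated 4) to 0.492 (SCD by Welch's test per probe set). The count of called probe sets on the whole array, 2 in all calves, was 1 with probe sets of 1 symbol only, 4 with array weights, 0 by Welch's test, 0 with the replicate block and 25 without restricted 2 and restricted 4, and ranged from 0 to 12 over single left-out calves; the cause was not tested. With the replicate block SCD differed by -1.12 ± 0.20 (SE) and THRSP by -2.07 ± 0.39 (SE), and no call among the 10 genes changed. Elevated 6 has no restricted calf of its number and did not contribute to these block differences, which equal those without elevated 6. Of 233 values of members under alternatives, 225 kept their sign and side of the threshold and 8 changed sign, in 2 genes. SREBF1 was 0.10 with array weights, 0.29 with the adipocyte covariate, 0.29 without restricted 2 and restricted 4, and ranged from -0.12 to 0.19 over single left-out calves (0.19 without restricted 2, 0.018 without elevated 2, 0.00065 without restricted 4, 0.044 without elevated 4). MLXIPL was 0.022 with the adipocyte covariate. Over single left-out calves SCD ranged from -1.14 to -0.89, THRSP from -2.28 to -1.59, FASN from -1.02 to -0.61, ACSS2 from -1.42 to -0.89, ACACA from -0.79 to -0.38 and MLXIPL from -0.90 to -0.39, each smallest in size without restricted 2. RMA compresses differences of dim probe sets, such as those of MLXIPL and ACACB.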

Other observations

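Markers of further cell types of the gland are given as values. Luminal epithelial markers had higher means in elevated calves for 18 of 20 genes (median difference 0.67), PGR and ELF5 being lower. Without restricted 2 and restricted 4 the median was 0.16 and 5 of 20 were lower. Among those 5 were PGR (-1.39), ELF5 (-1.08) and TFAP2C (-0.65). KRT18 read 7.81 to 8.85 in elevated calves, and 8.08, 5.86, 7.99, 7.01 and 8.04 in restricted 1 to 5. Restricted 2 and restricted 4, with the highest mean lipogenic signals, thus had the lowest KRT18 signals. Of the basal keratin genes, KRT14 and KRT17 were lowest in elevated 5 and KRT5 in restricted 2. KRT8 read 5.58 to 7.29 in elevated calves and 4.44 to 6.55 in restricted calves. LEP, the gene of leptin, read 3.34 to 5.24 in elevated calves, and 5.06, 7.88, 5.27, 7.05 and 5.06 in restricted 1 to 5. Basal and myoepithelial, fibroblast and endothelial lists had median differences of 0.04, 0.01 and 0.06, macrophage markers -0.20, and skeletal muscle markers 0.80 with 10 of 10 genes higher. Without restricted 2 and restricted 4 these medians were -0.24, 0.04, 0.18, -0.16 and 0.99 in the same order of lists. None of these lists had a gene past the adjusted threshold.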
